A study of Mus musculus with 9 samples.

Results

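The clustered protocadherins are cell-surface adhesion proteins of neurons, encoded in mouse by 3 neighbouring gene arrays on chromosome 18 called alpha, beta and gamma. Members were taken by gene symbol: every gene of the deposited table named Pcdha, Pcdhb, Pcdhga, Pcdhgb or Pcdhgc with a number, and Pcdhac1 and Pcdhac2. The rule found 56 genes in 57 of the table's 22255 rows, 13 in the alpha, 22 in the beta and 21 in the gamma cluster. Pcdha11 is listed under 2 identifiers, and these were summed; they have separate positions and exons in the annotation, so the summed values may pool 2 genes.

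Each alpha and gamma gene supplies a large variable exon of its own, which is spliced to constant exons shared by the whole cluster; the beta genes have no constant exons and each makes a separate protein. Most members have a promoter that a neuron switches on by a largely random choice, which depends on CTCF, cohesin and DNA methylation, whereas the C-type members at the ends of the alpha and gamma clusters are used more widely. The proteins recognise identical copies on the facing membrane, and a neuron's own combination lets its branches recognise and avoid each other.

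The study measured RNA of hippocampal synaptoneurosomes, a fraction enriched in pinched-off synaptic terminals, from mice lacking Fmr1, the gene whose loss causes fragile X syndrome. All 9 samples are labelled Fmr1 KO on the C57Bl/6J strain. The 4 samples labelled AM6545 (A, B, C and E) followed sub-chronic dosing with that compound, a CB1 cannabinoid receptor antagonist with limited entry into the brain, and the 5 labelled vehicle (A to E) followed vehicle. No wild-type mouse was analysed here, the age, sex, dose and duration are not given in the sources used here, and no label says whether each sample is 1 animal, so a test measures the spread between these samples. The question asked of the members is whether their RNA in this fraction differs between the compound and vehicle.

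The estimated counts summed to between 17628922 (vehicle A) and 27263393 (vehicle B) per sample. Levels are given as CPM, the count scaled to a fixed library total with edgeR's TMM factors, and 14502 genes passed its filter on low counts. Fmr1 reads were still present at 9.45 to 13.3 CPM in all 9 samples, and with no wild type the loss of Fmr1 could not be checked. Markers of excitatory neurons summed to 2254 to 2624 CPM with AM6545 and 2179 to 2494 CPM with vehicle, and those of inhibitory neurons to 682 to 823 and 724 to 835 CPM. Oligodendrocyte markers reached 13099 to 18817 and 10736 to 22473 CPM, so glial RNA is present in the fraction. Choroid plexus markers separated the vehicle samples: A, D and E held 2172 to 4437 CPM, vehicle B and C 313 and 48.5 CPM, and the AM6545 samples 61.5 to 957 CPM. In bulk RNA, fewer cells of a type and less RNA per cell cannot be told apart.

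The members together made up 0.0692% to 0.100% of each sample's counts. Gamma members carried 51.4% ± 3.58 (SD, n = 5) of the clustered protocadherin counts with vehicle and 51.9% ± 1.64 (SD, n = 4) with AM6545. The alpha cluster carried 25.6% ± 2.53 and 24.8% ± 1.27, and the beta cluster 23.0% ± 1.38 and 23.3% ± 0.712. The division among the 3 clusters thus differed between the groups by less than the spread within them.

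Levels between members were compared per kilobase of each gene's longest annotated transcript, over all 9 samples. Pcdhgc4, a C-type gamma member that cortical interneurons need to survive, was the most abundant at 28.2 CPM per kb. Pcdhgc5, a C-type member whose protein binds the gamma-2 subunit of the GABA-A receptor, followed at 13.9 CPM per kb. Pcdhac2, the C-type alpha member that serotonergic axons need to spread evenly over their targets, was at 11.8 CPM per kb. Next came Pcdhb9 at 9.74, Pcdhb7 at 5.54, Pcdha12 at 5.003, Pcdhb12 at 4.82 and Pcdhgc3 at 4.43 CPM per kb. The other C-type member, Pcdhac1, was near the middle of the family at 1.44 CPM per kb. At the low end lay Pcdhb13 at 0.16, Pcdha8 at 0.15 and Pcdhb1 at 0.02 CPM per kb. Pcdhb1 had between 0 and 7 counts in a sample and was the 1 member that did not pass the filter, so 55 members were tested.

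**Figure D1:**
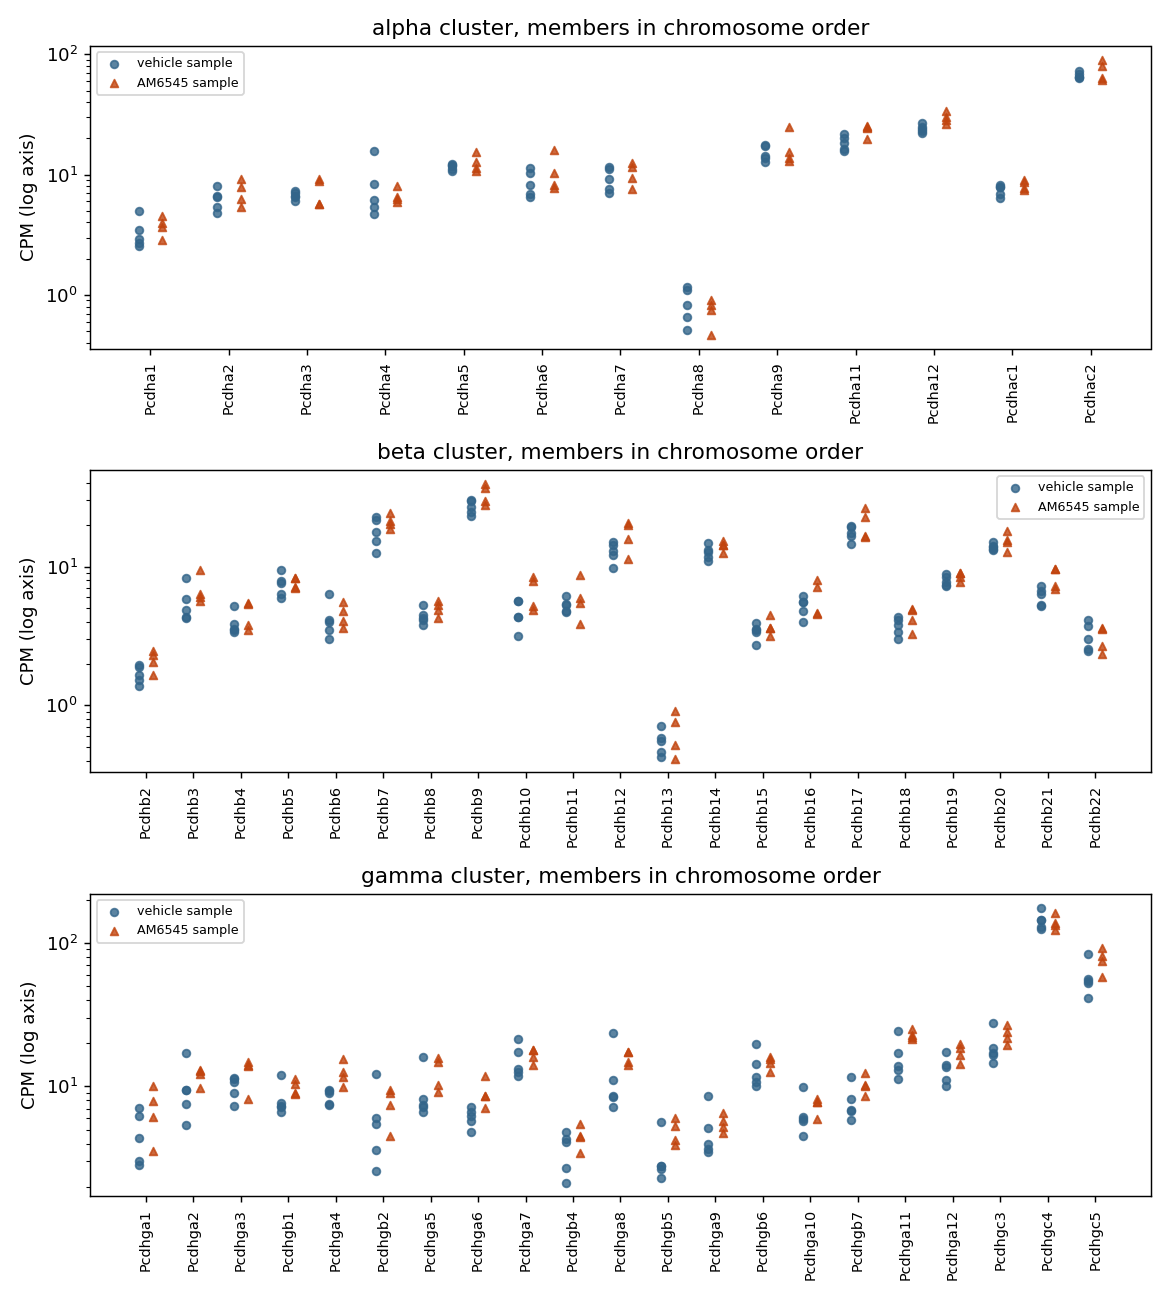
Level of each tested member in every sample, in CPM on a log axis that is not corrected for transcript length, with vehicle samples as circles and AM6545 samples as triangles. The C-type members Pcdhac2, Pcdhgc4 and Pcdhgc5 stand above the other members of their clusters, and the points of both groups overlap for every member but Pcdhga4.

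No member passed edgeR's quasi-likelihood test at an adjusted p of 0.05. The Benjamini-Hochberg adjusted p-values of the members ran from 0.653 to 0.958, and none of the 14502 genes passed (0%). DESeq2 also called 0 members. At an unadjusted p under 0.05, 12 of the 55 tested members (21.8%) were called, all of them with the higher level under AM6545, against 3.03% of all tested genes called in that direction. None was called lower, against 4.17% of all genes. By DESeq2 there were 13 such members of 56 (23.2%), against 3.13% of all genes it tested. A fold change above 0, the higher mean under AM6545, was fitted for 51 of the 55, against 48.2% of all genes, and the median log2 fold change was 0.23 over the members and -0.01 over all genes. All members share a chromosome region and were measured in the same samples, and alpha and gamma members share constant exons within their cluster. Reads can also be divided among members with common sequence. The members are therefore not independent observations of the treatment.

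The count at an unadjusted p depended on single libraries. It was 7 members without AM6545 E, where 6.78% of all genes were called higher, and 7 without AM6545 C, where 2.37% were. It was 21 without vehicle B, where 5.63% of all genes were called higher. The median log2 fold change of the members was 0.12 without AM6545 E and 0.30 without vehicle B. The groups did not overlap for 1 member, Pcdhga4, against 0.579% of all genes with every AM6545 sample higher. Without vehicle B there were 12 such members, against 2.85% of all genes, and without AM6545 B there were 8, against 1.36%. There were 3 without vehicle D (0.965% of all genes), 2 without vehicle A (0.793%) and 2 without AM6545 A (0.993%). In the remaining settings there was 1 such member: without AM6545 E (5.12% of all genes), AM6545 C (1.28%), vehicle C (1.01%) or vehicle E (0.745%).

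**Figure D2:**
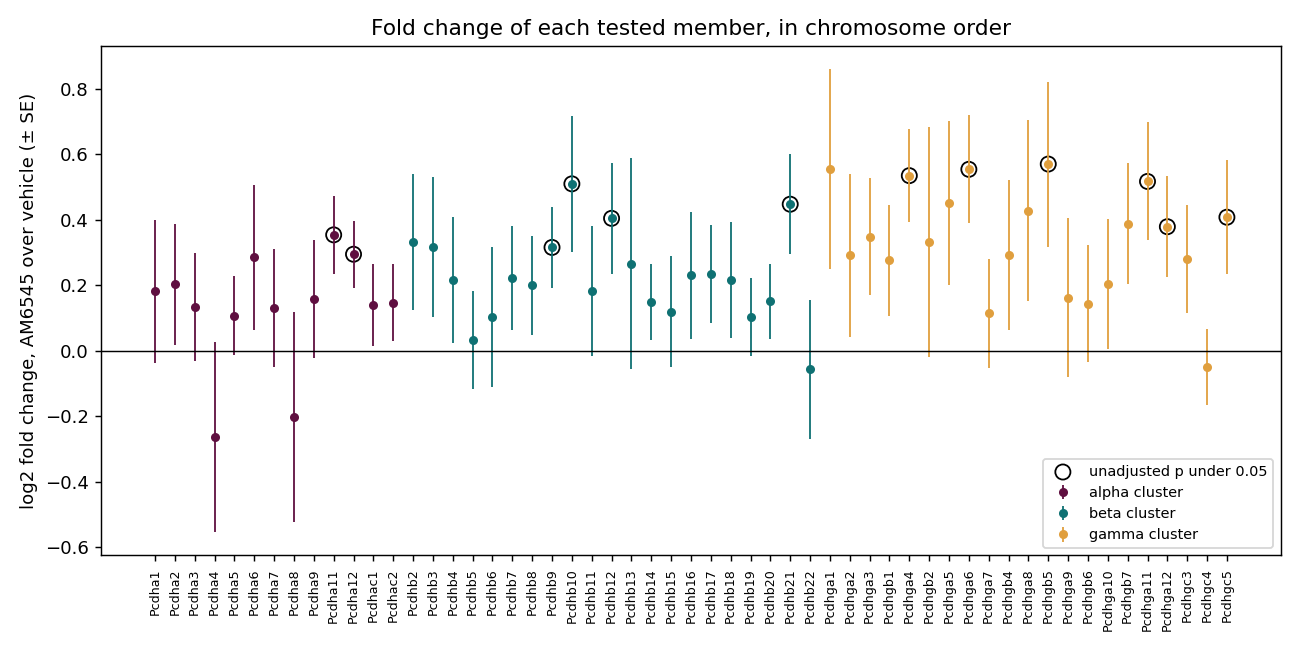
Fitted log2 fold change of each of the 55 tested members, AM6545 over vehicle, with its standard error, in chromosome order and coloured by cluster; rings mark the 12 members at an unadjusted p under 0.05. Of the members, 51 lie above 0 and Pcdha4, Pcdha8, Pcdhb22 and Pcdhgc4 lie below it.

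In the gamma cluster 20 of 21 members had the higher mean with AM6545, against 48.2% of all genes. At an unadjusted p under 0.05, 6 members were called higher, against 3.03% of all genes. The median log2 fold change of the cluster was 0.35. These proteins fall into A, B and C types by the sequence of their variable exon, and their shared cytoplasmic end acts in dendrite growth and neuron survival. All 12 A-type members lay above 0, with a median of 0.40, as did all 6 B-type members, with a median of 0.31. The 3 C-type members were divided.

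Pcdhgc4 (ENSMUSG00000023036.15) was measured at 134, 123, 138 and 161 CPM in AM6545 samples A, B, C and E and at 176, 144, 124, 145 and 129 CPM in vehicle samples A to E. The AM6545 samples lay inside the vehicle range except B, just below it, and vehicle A was the highest of all 9. Its log2 fold change was -0.05 ± 0.12 (SE), the value nearest 0 in the gamma cluster, and its sign turned without AM6545 B (0.0040) or without vehicle A (0.035).

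Pcdhgc5 (ENSMUSG00000102543.6) was at 75.3, 58.1, 80.6 and 92.1 CPM in the AM6545 samples, in the same order, and at 41.5, 83.7, 54.2, 52.5 and 56.3 CPM in the vehicle samples. All 4 AM6545 samples lay above 4 of the 5 vehicle samples, and vehicle B lay above all but AM6545 E. The log2 fold change was 0.41 ± 0.17 (SE; edgeR adjusted p = 0.653). Pcdhgc3, whose protein binds Axin1 and dampens Wnt signalling, was at 21.8, 19.6, 23.9 and 26.9 CPM with AM6545 and 17.2, 27.6, 16.5, 14.6 and 18.7 CPM with vehicle. All 4 AM6545 samples again lay above 4 of the 5 vehicle samples, but here vehicle B lay above every AM6545 sample. The log2 fold change of Pcdhgc3 was 0.28 ± 0.16.

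Among the A-type members Pcdhga4 (ENSMUSG00000103677.2) had the smallest unadjusted p of the family, 0.00209. Its level was 12.6, 9.91, 11.5 and 15.6 CPM with AM6545 and 9.07, 9.48, 7.57, 9.26 and 7.44 CPM with vehicle. The lowest AM6545 sample, B, was above the highest vehicle sample, B, by less than the spread within either group. Its mean was 12.4 ± 2.38 CPM (SD, n = 4) with AM6545 and 8.56 ± 0.980 CPM (SD, n = 5) with vehicle. On the log2 scale this was a difference of 0.53 ± 0.14 (SE; edgeR adjusted p = 0.653).

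Pcdhga6 was at 8.53, 7.03, 8.54 and 11.8 CPM with AM6545 and 7.22, 5.75, 6.65, 6.26 and 4.80 CPM with vehicle, a log2 fold change of 0.55 ± 0.16 (SE). The groups overlapped only through AM6545 B, which lay below vehicle A. Pcdhga11 was at 22.1, 22.8, 21.4 and 25.3 CPM with AM6545 and 11.3, 24.4, 14.0, 17.0 and 13.1 CPM with vehicle, and its log2 fold change was 0.52 ± 0.18. Here the AM6545 samples stood together above 4 of the vehicle samples, and vehicle B lay among them. Pcdhga12 was at 19.8, 14.3, 16.5 and 18.5 CPM with AM6545 and 10.1, 17.3, 14.1, 11.03 and 13.7 CPM with vehicle, a log2 fold change of 0.38 ± 0.15. Vehicle B was again the 1 vehicle sample among the AM6545 values. The other named A-type member, Pcdhga7, was at 14.2, 16.1, 17.9 and 18.04 CPM with AM6545 and 12.6, 21.4, 13.2, 17.5 and 11.8 CPM with vehicle. Vehicle B was the highest of the 9 samples, and the log2 fold change of 0.11 ± 0.17 was within its error.

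Pcdhgb5 had the largest fold change of the 55 members, 0.57 ± 0.25 (SE) on the log2 scale, at a low level. It was at 6.05, 5.30, 4.21 and 3.89 CPM with AM6545 and 2.77, 5.67, 2.29, 2.66 and 2.79 CPM with vehicle. All AM6545 samples lay above vehicle A, C, D and E, and vehicle B lay above all but AM6545 A.

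Vehicle B stood apart from the other vehicle samples across this cluster. It was the highest vehicle sample for 17 of the 21 gamma members and the highest of all 9 samples for 10. Vehicle A was the lowest of all 9 for 7 members, vehicle E for 7 and vehicle D for 5. Within the AM6545 group, sample E was the highest for 15 gamma members and sample B the lowest for 15. Vehicle B is also the deepest library and held 313 CPM of choroid plexus markers; the part of either in these levels was not tested. The median biological coefficient of variation, edgeR's measure of spread between replicates, was 0.19 over the gamma members and over all members, against 0.14 over all genes.

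Because constant exons are shared, the sum over a cluster does not depend on how reads were divided among its members. It can depend on reads divided with a gene outside the family. The predicted gene Gm42416 contains 5.44% to 9.02% of the 31-base words (runs of 31 bases) of each gamma member. The gamma sum was 432, 374, 450 and 510 CPM with AM6545 and 363, 493, 348, 353 and 336 CPM with vehicle. AM6545 E was the highest, vehicle B came second, and the groups overlapped. The means were 442 ± 55.9 (SD, n = 4) and 378 ± 64.6 CPM (SD, n = 5), a log2 ratio of 0.22 that ranged from 0.15 to 0.34 over the alternatives. Pcdhgc4 was the 1 gamma member with the lower mean under AM6545, so leaving it out raises the ratio by construction. Without it, an unplanned choice, the gamma sum was 303 ± 40.6 and 235 ± 65.0 CPM, a log2 ratio of 0.37. All 4 AM6545 samples were then above 4 of the 5 vehicle samples, with vehicle B (348 CPM) beside AM6545 E (349 CPM).

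**Figure D3:**
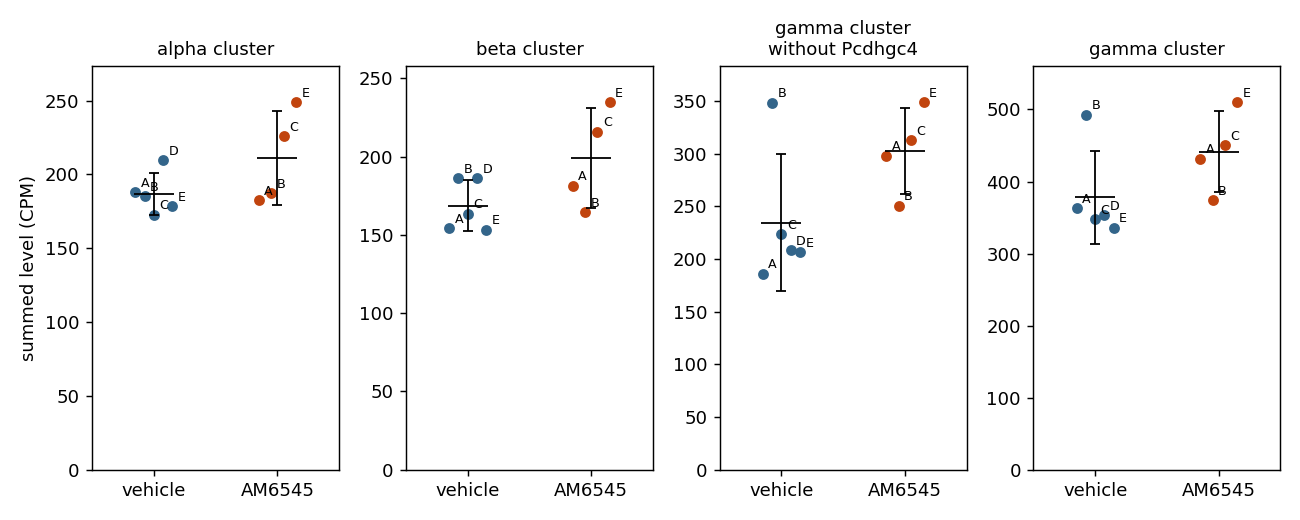
Summed level in CPM of the alpha cluster, the beta cluster, the gamma cluster without Pcdhgc4 and the whole gamma cluster, on axes that start at 0; points are samples with their letters, and bars show the mean ± SD. AM6545 E is the highest point of each panel, and vehicle B lies far from the other vehicle samples only in the 2 gamma panels.

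The make-up of the gamma cluster was uniform among AM6545 samples and uneven among vehicle samples. Pcdhgc4 took 30.97%, 33.0%, 30.6% and 31.6% of gamma counts in the AM6545 samples and 48.6%, 29.3%, 35.7%, 41.0% and 38.5% in the vehicle samples. The means were 31.5% ± 1.06 (SD, n = 4) and 38.6% ± 7.11 (SD, n = 5), and vehicle B was the 1 vehicle sample that did not lie above the AM6545 range. A-type members took 34.1% to 34.4% with AM6545 against 30.3% ± 3.58 with vehicle, where A had the lowest share, 25.8%, and B the highest, 34.7%. The difference in Pcdhgc4's share, -7.10 percentage points, was between -9.45 and -4.60 when any 1 sample was left out. Pcdhgc4 had 1.71 to 2.12 times the counts of Pcdhgc5 with AM6545 and 1.72 to 4.25 times with vehicle. Vehicle A, the sample with the highest Pcdhgc4 share, is the shallowest library and holds 4080 CPM of choroid plexus markers. Vehicle D and E, next in share, hold 4437 and 2172 CPM, and vehicle C and B, with the lowest vehicle shares, hold 48.5 and 313 CPM. The 3 vehicle samples richest in these markers thus have the 3 highest Pcdhgc4 shares. Vehicle C, however, had the least of these markers of all 9 samples. Its share of 35.7% was still above those of vehicle B and all 4 AM6545 samples, which hold 61.5 to 957 CPM. The part of depth or of these markers in the shares was not tested.

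**Figure D4:**
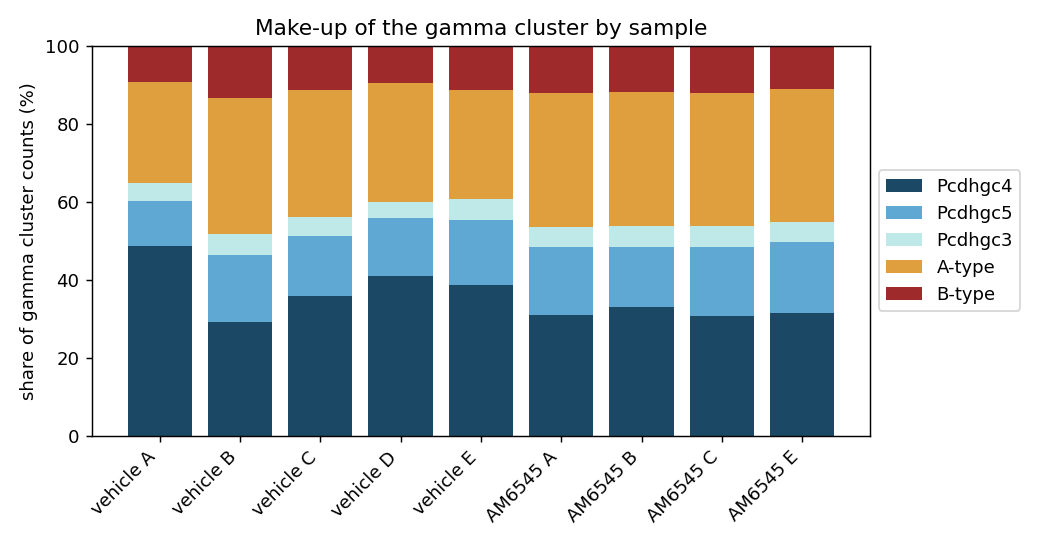
Share of each sample's gamma cluster counts (%) taken by Pcdhgc4, Pcdhgc5, Pcdhgc3, the 12 A-type and the 6 B-type members, with the 5 vehicle samples on the left and the 4 AM6545 samples on the right. The Pcdhgc4 segment is 30.6% to 33.0% in the AM6545 samples and 29.3% to 48.6% in the vehicle samples.

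In the alpha cluster 11 of 13 members had the higher mean with AM6545, against 48.2% of all genes. At an unadjusted p under 0.05, 2 members were called higher, against 3.03% of all genes. The median log2 fold change of the cluster was 0.15. The shared cytoplasmic end of these proteins binds the WAVE complex, which drives actin branching, and inhibits the focal adhesion kinases FAK and Pyk2. Pcdhac2 was at 61.0, 63.1, 80.3 and 90.3 CPM with AM6545 and 63.2, 64.2, 64.2, 72.8 and 68.6 CPM with vehicle. AM6545 C and E were above every vehicle sample and A and B were below every one, so the log2 fold change of 0.15 ± 0.12 (SE) averages a divided group. Its share of alpha counts was 34.7% ± 1.37 (SD, n = 4) and 35.7% ± 2.01 (SD, n = 5). Serotonergic neuron RNA was scarce in the fraction. Of the markers that define these neurons, Slc6a4 and Fev were at 0 in some samples, whereas Tph2 was present in all 9 at 1.44 to 2.72 CPM. The list's sum of 8.49 to 14.0 CPM was mostly Ddc. Pcdhac1 was at 8.68, 7.41, 7.77 and 8.98 CPM with AM6545 and 6.35, 7.83, 6.91, 8.16 and 7.95 CPM with vehicle, a log2 fold change of 0.14 ± 0.13. The values of both groups were interleaved.

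Pcdha12, the alternate alpha member of highest level, was at 30.3, 26.2, 34.0 and 28.4 CPM with AM6545 and 22.9, 24.8, 22.2, 27.1 and 24.2 CPM with vehicle. The groups overlapped only between AM6545 B and vehicle D, and the log2 fold change was 0.29 ± 0.10 (SE; edgeR adjusted p = 0.653). Pcdha11, over both identifiers, was at 19.8, 24.7, 24.3 and 25.3 CPM with AM6545 and 18.2, 15.7, 20.1, 21.9 and 16.4 CPM with vehicle, a log2 fold change of 0.35 ± 0.12. AM6545 A lay among the vehicle samples and the other AM6545 samples lay above them. The identifiers differed: ENSMUSG00000007440.11 was at 14.7 ± 2.51 (SD, n = 4) against 10.8 ± 1.97 CPM (SD, n = 5), and ENSMUSG00000102206.6 at 8.77 ± 2.55 against 7.65 ± 1.51 CPM. Fitted separately, in an alternative chosen after seeing the data, their log2 fold changes were 0.45 (unadjusted p = 0.010) and 0.20 (unadjusted p = 0.322). The sum reaches an unadjusted p under 0.05, and so does only the first of its parts. Pcdha9 was at 13.7, 13.0, 15.5 and 25.1 CPM with AM6545 and 17.3, 13.8, 12.7, 17.6 and 14.4 CPM with vehicle. Its log2 fold change of 0.16 ± 0.18 rested on AM6545 E and was -0.10 without that sample.

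Pcdha4 (ENSMUSG00000104252.6) had the lowest log2 fold change of the family, -0.26 ± 0.29 (SE). It was at 6.46, 6.27, 8.03 and 5.92 CPM with AM6545 and 15.8, 8.42, 5.38, 6.13 and 4.68 CPM with vehicle. Vehicle A alone was high, and without it the log2 fold change was 0.11. The annotation holds a predicted protein-coding gene, Gm42416, that joins the Pcdha4 exon to exons of the gamma cluster and contains 41.1% of the 31-base words of Pcdha4. Only 9.32% of the 31-base words of Pcdha4 occur in no other gene of the table, the lowest share of any member. Gm42416 was listed at 0 in vehicle A and at 3.11 to 5.58 CPM in the other 8 samples. The sum of both was 15.8 CPM in vehicle A and 8.22 to 13.6 CPM in the others, and with Gm42416 added the log2 fold change of Pcdha4 was 0.058, an alternative chosen after seeing the data. Reads of this exon can be divided between the models, so the value of Pcdha4 alone is uncertain.

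**Figure D5:**
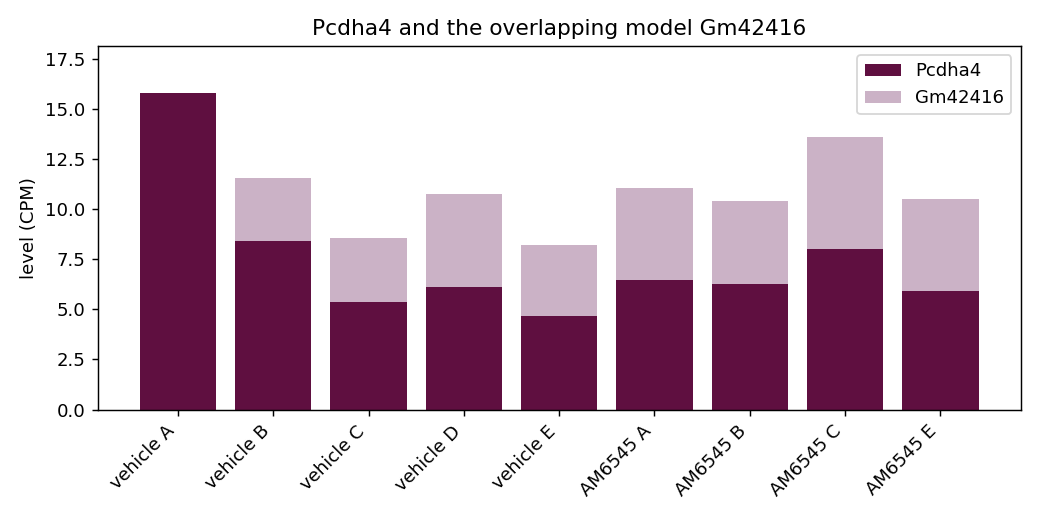
Level in CPM of Pcdha4 and, stacked above it, of the overlapping predicted gene Gm42416 in each of the 9 samples. Vehicle A has 15.8 CPM of Pcdha4 and none of Gm42416, while every other sample has both.

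The alpha sum was 182, 187, 226 and 249 CPM with AM6545 and 188, 185, 173, 210 and 178 CPM with vehicle. Gm42416 is outside this sum and was at 0 in vehicle A, where Pcdha4 was at 15.8 CPM, and at 3.11 to 5.58 CPM in the others. AM6545 C and E were above all vehicle samples, whereas A and B lay among them. The means of 211 ± 31.9 (SD, n = 4) and 187 ± 14.1 CPM (SD, n = 5) gave a log2 ratio of 0.18, which was 0.09 to 0.24 over the alternatives.

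In the beta cluster 20 of the 21 tested members had the higher mean with AM6545, against 48.2% of all genes. At an unadjusted p under 0.05, 4 members were called higher, against 3.03% of all genes. The median log2 fold change of the cluster was 0.21. With no constant exon, 77.5% to 100% of the 31-base words of a beta gene occur in no other gene of the table, against 9.32% to 55.1% in the alpha and 32.5% to 72.7% in the gamma cluster. Pcdhb9, the most abundant beta member, was at 29.5, 27.7, 36.8 and 39.5 CPM with AM6545 and 24.6, 29.5, 26.96, 30.0 and 23.1 CPM with vehicle. AM6545 C and E lay above all vehicle samples, A and B among them, and the log2 fold change was 0.31 ± 0.12 (SE; edgeR adjusted p = 0.653). Pcdhb12 was at 15.9, 11.4, 20.6 and 19.9 CPM with AM6545 and 9.76, 14.9, 14.3, 12.9 and 12.1 CPM with vehicle, a log2 fold change of 0.40 ± 0.17. Only AM6545 B fell inside the vehicle range.

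Pcdhb10 was at 5.22, 4.87, 7.85 and 8.38 CPM with AM6545 and 4.33, 4.32, 3.15, 5.62 and 5.67 CPM with vehicle, and its log2 fold change of 0.51 ± 0.21 (SE) was the largest of the beta cluster. Pcdhb21 was at 7.29, 6.91, 9.66 and 9.61 CPM with AM6545 and 5.32, 6.29, 5.18, 7.23 and 6.61 CPM with vehicle, a log2 fold change of 0.45 ± 0.15. In both genes AM6545 C and E were well above the vehicle samples and A and B near the top of the vehicle range. Pcdhb7 was at 20.4, 18.5, 24.2 and 21.4 CPM with AM6545 and 12.6, 21.7, 15.3, 22.9 and 17.7 CPM with vehicle, a log2 fold change of 0.22 ± 0.16. Pcdhb17 was at 16.6, 16.2, 22.7 and 26.6 CPM with AM6545 and 17.4, 19.3, 16.7, 19.4 and 14.5 CPM with vehicle, a log2 fold change of 0.23 ± 0.15. Both overlapped widely between the groups. Pcdhb22 was the 1 tested beta member with the lower mean, at 2.69, 2.33, 3.61 and 3.54 CPM with AM6545 and 3.76, 3.001, 2.54, 4.10 and 2.48 CPM with vehicle, and its log2 fold change of -0.06 ± 0.21 was 0.052 without AM6545 B, 0.0057 without vehicle A and 0.054 without vehicle D.

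AM6545 E was the highest of all 9 samples for 13 of the 21 tested beta members and for 8 of the 13 alpha members, and AM6545 B was the lowest AM6545 sample for 17 beta members. AM6545 E also had the highest summed astrocyte (3017 CPM), oligodendrocyte (18817 CPM) and microglial (549 CPM) markers of its group. Its summed inhibitory neuron markers were the lowest of the group (682 CPM). Every microglial marker was highest in AM6545 E, but the other lists were divided. The astrocyte marker Aldh1l1 and the oligodendrocyte marker Cnp were lowest there, and Mog was not the highest. Of the inhibitory neuron markers, Gad1 and Sst were lowest in AM6545 E, whereas Slc32a1 and Vip were highest. Vehicle A had higher astrocyte (3167 CPM) and oligodendrocyte (22473 CPM) marker sums than AM6545 E, with a beta sum of 154 against 235 CPM. The part of these markers in the levels was not tested. The beta sum was 182, 165, 216 and 235 CPM with AM6545 and 154, 186, 164, 186 and 153 CPM with vehicle. Its means were 199 ± 31.8 (SD, n = 4) and 169 ± 16.5 CPM (SD, n = 5), a log2 ratio of 0.24 that was 0.15 to 0.32 over the alternatives. The groups overlapped. Unlike in the gamma cluster, vehicle B (186.3 CPM) and vehicle D (186.4 CPM) were level in this sum.

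Fold changes in these libraries varied with transcript length over all genes. Genes with a longest transcript under 1000 bases had a median log2 fold change of -0.23, and those from 4000 to 6000 bases a median of 0.03, with 57.9% above 0 and 5.55% called higher at an unadjusted p under 0.05. In that length class the 39 tested members had a median of 0.28, with 9 called higher. The 13 members from 2000 to 4000 bases had a median of 0.22 against 0.01 over all genes of that length, with 3 called higher. The 3 members of 6000 bases or more had a median of 0.10 against 0.02, with 0 called higher against 3.63% of all genes of that length. Alpha members have transcripts of 5206 to 5888 bases and gamma members of 4661 to 5080 bases, so none falls among the short genes. The part of length in the members' fold changes was not tested.

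Genes that act with the members were followed in 5 lists, and none of their genes passed the adjusted test. Of the regulators of promoter choice, 21 of 22 were tested and 11 had a fold change above 0; Dnmt1, which maintains DNA methylation, was the 1 at an unadjusted p under 0.05. Its level was 27.4, 29.0, 20.6 and 17.0 CPM with AM6545 and 10.8, 19.5, 19.9, 18.9 and 19.0 CPM with vehicle, a log2 fold change of 0.41 ± 0.18 (SE). AM6545 E, the sample highest in protocadherins, had the lowest Dnmt1 of its group. The relation of Dnmt1 to the members' levels was not tested. In the WAVE complex, 5 of 9 genes lay above 0. Cyfip1, which also binds the Fmr1 protein, was at 148, 161, 140 and 113 CPM with AM6545 and 102, 132, 109, 116 and 122 CPM with vehicle, and Wasf3 at 14.5, 15.6, 21.8 and 19.4 CPM and 28.6, 21.9, 21.1, 20.9 and 20.6 CPM. Their log2 fold changes were 0.27 ± 0.11 and -0.34 ± 0.14, both at an unadjusted p under 0.05, in opposite directions and with overlapping groups.

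None of the 15 tested membrane partners reached an unadjusted p under 0.05, with 9 above 0. The smallest p was that of Ptk2b, which encodes Pyk2, with a log2 fold change of 0.30 ± 0.15 (SE). None of the 8 genes of the proteases that cut protocadherins did so, with 4 above 0, and Psenen had the smallest p, at -0.23 ± 0.13. Of the protocadherins outside the clusters, 11 were tested and 9 lay above 0, with a median log2 fold change of 0.10 against 0.23 in the clustered members. Pcdh1 and Pcdh8 were at an unadjusted p under 0.05. Pcdh1 was at 15.8, 14.95, 19.1 and 20.6 CPM with AM6545 and 10.6, 18.2, 12.8, 14.8 and 13.1 CPM with vehicle, and Pcdh8 at 128, 118, 131 and 154 CPM and 106, 136, 99.1, 117 and 99.6 CPM. Vehicle B was the highest vehicle sample for both, as it was for most gamma members, and their log2 fold changes were 0.34 ± 0.15 and 0.25 ± 0.11.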

How the data were processed

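Per the labels' protocols, libraries from synaptoneurosome RNA were prepared with the SMARTer Ultra Low kit for Illumina sequencing. The authors deposited 1 table of estimated counts per Ensembl gene for the 9 samples. The submitters' processing notes name Salmon 1.3, DESeq2 1.30 and the builds GRCm39 and mm10, with no role or order. Between 56.6% and 69.4% of values per sample are whole numbers, so counts were rounded. Symbols were found for 22155 of 22255 identifiers. AM6545 and vehicle were compared with edgeR 4.0.16 (R 4.3.3): TMM scaling, filterByExpr, quasi-likelihood F-test, group as the 1 term, Benjamini-Hochberg adjustment over all 14502 genes; scripts were tested on simulated data. The samples were distinct libraries (chi-square per degree of freedom 10.3 to 93.4 over all pairs of the 9 samples, within and between groups). Transcript lengths, exon sharing and 31-base words come from GENCODE M21, which may not be the authors' annotation.

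Members and lists were chosen with earlier results of these data known. Members given in every sample are the C-type members, the 3 other most abundant members of each cluster, those at an unadjusted p under 0.05, and the lowest and highest fold change of each cluster; from other lists, those at an unadjusted p under 0.05 and the smallest p. Sums and shares are descriptions without a test. Alternatives were DESeq2 1.42.0, other size factors and filters, a block on the title letter, and leaving out each sample. The sequences of the members are not reported here.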

Additional observations from a re-analysis of the deposited data

Results flagged for a closer look

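Of 116 groups of member or cluster values examined, 8 held a sample whose gap to its nearest neighbour was a large part of the group's whole range (Dixon's 95% criterion), where chance alone gives about 5.8, or 1 in 20. In the vehicle group 5 of them concern sample B and the gamma cluster. Pcdhgb1 was at 11.97 CPM in vehicle B, where the rest of the vehicle group lay between 6.59 and 7.71 CPM, a gap of 0.792 of the range. Pcdhga5 was at 16.1 against 6.59 to 8.23 CPM (0.828), and Pcdhga8 at 23.6 against 7.22 to 11.02 CPM (0.768). Pcdhgb5 was at 5.67 against 2.29 to 2.79 CPM (0.85). The summed gamma cluster was at 493 against 336 to 363 CPM (0.8289); it contains the 4 genes just named and is not a separate observation.

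The remaining 3 concern other samples. Pcdhb4 was at 5.20 CPM in vehicle D, with the rest of its group at 3.40 to 3.87 CPM (0.74). Pcdhb3 was at 9.42 CPM in AM6545 E, with the rest at 5.68 to 6.31 CPM (0.832). Pcdhga3 was at 8.22 CPM in AM6545 B against 13.9 to 14.8 CPM (0.866), and it is the 1 sample here that lay below its group.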

How the results depend on the processing

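No member passed an adjusted p of 0.05 in any of the 14 alternative fits. Members at an unadjusted p under 0.05, 12 as reported and all higher with AM6545, numbered 7 to 21 when each sample was left out. Of all genes, 1.61% to 6.78% were called higher in those settings. Under other size factors, filters or DESeq2 there were 12 or 13 members, against 2.95% to 3.50% of all genes. Over all genes, leaving out each sample gave 0 to 1 call at an adjusted p. Members whose groups did not overlap, 1 as reported, numbered 1 to 12 when each sample was left out. The share of all genes in those settings was 0.745% to 5.12%, and it was highest without AM6545 E, where 1 member did not overlap. With scaling by total counts only there were 2 such members, for which no share over all genes is given. The cause of these shifts was not tested. Cluster sums kept their sign throughout.

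The log2 fold changes of 4 named members turned sign, and the cause was not tested. Leaving out each sample, Pcdha4 ranged from -0.41 to 0.11 (without vehicle A), Pcdha9 from -0.10 (without AM6545 E) to 0.26, Pcdhb22 from -0.15 to 0.054 (0.052 without AM6545 B, 0.0057 without vehicle A, 0.054 without vehicle D) and Pcdhgc4 from -0.13 to 0.035 (0.0040 without AM6545 B, 0.035 without vehicle A). With Gm42416 added, Pcdha4 was at 0.058.

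With the title letter as a replicate block, 13 members (23.6%) were higher at an unadjusted p under 0.05, against 2.19% of all genes, 52 had a fold change above 0, the smallest adjusted p of a member was 0.825 and Pcdhb22 was at 0.049. Samples with the same letter deviated from their group means with correlations of -0.02, 0.04, 0.34 and -0.02 for A, B, C and E, so the letters are not taken to pair samples.

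With 4 and 5 samples and wide spread between libraries, the median standard error of a member's log2 fold change was 0.18. A difference of about that size cannot be told from sampling spread, and even the largest, 0.57, did not pass the adjusted test. Members below 1 CPM rest on few counts. How reads were divided among alpha or gamma members could not be checked from the counts.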
